A study of Macaca fascicularis with 8 samples.

Results

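The classical cadherins CDH1, CDH2, CDH3, CDH4, CDH6 and CDH11 and their cytoplasmic partners CTNNA1, CTNNA2 and CTNND1 were followed in embryonic stem cells (ESCs) of the cynomolgus monkey, Macaca fascicularis, and the question was whether another cadherin stands in for CDH1 in dome-shaped cells. These 9 genes were chosen by name from the 33121 genes of the deposited expression table, with earlier results of these data known. CDH2 was found by the gene symbol in that table, and the other 8 by the name of their best protein match, at 92.5% to 100% identity. CTNND1 was taken from a match that carries the clone name KIAA0384, a clone of this gene. Each gene had 1 row.

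Polyadenylated RNA was sequenced in 8 libraries, 4 from primed ESCs and 4 from dome-shaped ESCs. Primed ESCs grew as flat colonies in CESM, a mixture of PSGro and conventional monkey ESC medium, and are labelled weak in single-cell passage. Dome-shaped ESCs grew in NHSMV, a knockout DMEM medium with AlbuMAXI, N2, insulin, human LIF, bFGF, TGF-β1, vitamin C, glutamine, nonessential amino acids and β-mercaptoethanol, together with the kinase inhibitors PD0325901, CHIR99021, SB202190, SP600125 and SB203580, and are labelled strong in single-cell passage. Medium, colony shape and group coincide and cannot be told apart. The labels do not say whether the libraries came from separate cultures or animals, so the p-values below measure only the spread between these libraries.

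Classical cadherins are transmembrane receptors that bind the same or a like cadherin on the neighbouring cell in the presence of calcium. Inside the cell, their tail binds p120-catenin, which keeps the cadherin at the surface, and beta-catenin or plakoglobin, which bind alpha-catenin and through it the actin cytoskeleton. E-cadherin is the usual cadherin of epithelia and of pluripotent stem cell colonies, and the exchange of E-cadherin for N-cadherin is a familiar mark of cells that leave an epithelium.

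Levels are given in RPKM, reads scaled to the length of the gene and to the depth of the library, which allows genes of different length to be compared. The RPKM steps implied 14401000 to 18076000 reads per library. Fold changes are dome-shaped minus primed on the log2(RPKM + 1) scale and come from limma across 15597 genes, with Benjamini-Hochberg adjusted p over all of them and a threshold of 0.05. By that rule 14.3% of genes were called, 6.38% higher and 7.96% lower in dome-shaped cells. The 995 genes called higher became 381, 516 and 487 when primed replicate 2, 3 or 4 was left out, and 399 and 442 when dome-shaped replicate 2 or 3 was. The 1242 called lower became 655 and 757 when primed replicate 2 or 4 was left out, and 689 and 686 when dome-shaped replicate 2 or 3 was. Without dome-shaped replicate 4 the counts rose to 1289 higher and 1441 lower. Markers of pluripotent cells were present in both groups, but POU5F1 had no row. The summed level of the 11 markers found was 3256 to 3885 RPKM in the primed group and 2050 to 3233 RPKM in the dome-shaped one. Limma called 5 of the 11 lower. At an unadjusted p under 0.05, 8 were lower, against 15.4% of all genes tested. Dome-shaped replicate 4 stood apart from the other dome-shaped libraries. It held that highest dome-shaped marker sum and the highest dome-shaped levels of CDH1 and CDH3, so results are given with and without it where it moves them.

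Of the 9 genes, all of which passed the filter on low values, limma called 0 higher and 2 lower in dome-shaped cells, CDH1 and CDH3, against 6.38% higher and 7.96% lower of all genes tested. At an unadjusted p under 0.05 the counts were 2 higher, CDH2 and CDH6, and 3 lower, with CTNND1 added, against 16.2% higher and 15.4% lower of all genes tested. The groups did not overlap for 2 of the 9 genes, against 22.2% of all genes tested. The median log2 fold change of the 9 genes was -0.22, against 0.026 for all genes tested.

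**Figure D1:**
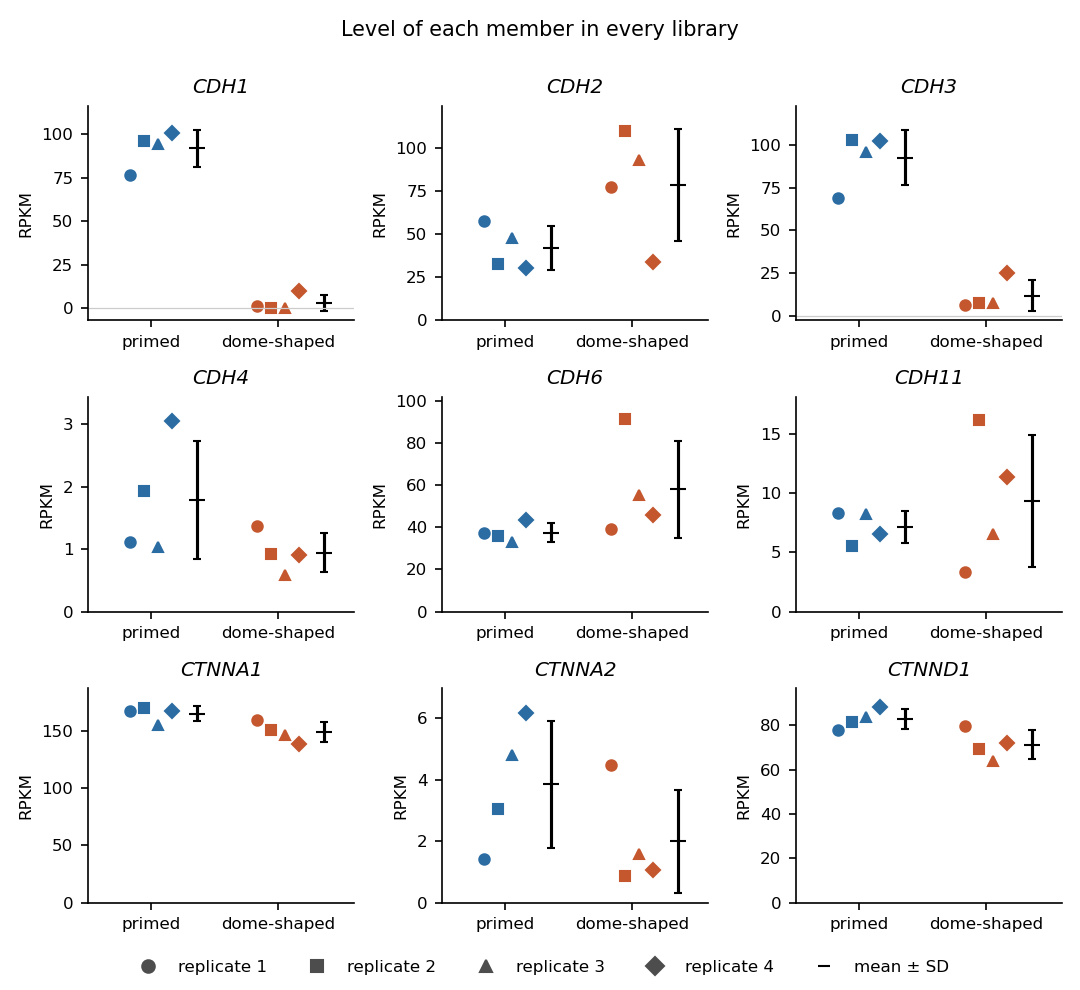
Level in RPKM of each of the 9 genes (vertical axes, linear) in the 4 primed and 4 dome-shaped libraries, with points for replicates and bars for the mean ± SD. Primed and dome-shaped libraries are separate for CDH1 and CDH3 and overlap for the other 7 genes, and dome-shaped replicate 4 is the highest dome-shaped library for CDH1 and CDH3 and the lowest for CDH2.

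CDH1 encodes E-cadherin. Its level in primed replicates 1 to 4 was 76.5, 96.3, 94.1 and 100.5 RPKM, and in dome-shaped replicates 1 to 4 it was 1.56, 0.364, 0.205 and 9.96 RPKM. Every dome-shaped library lay below every primed library, and dome-shaped replicate 4 lay above the other three dome-shaped libraries by a wide gap. The mean was 91.8 ± 10.6 RPKM (SD, n = 4) in primed and 3.02 ± 4.67 RPKM (SD, n = 4) in dome-shaped cells, a ratio of 30.4. CDH1 fell by 5.15 on the log2 scale (SE 0.60, 95% interval -6.49 to -3.81, limma adjusted p = 0.00203). The dome-shaped levels rest on about 62, 13, 9 and 357 reads, so in replicates 2 and 3 counting error alone is large. Without dome-shaped replicate 4 the dome-shaped mean was 0.709 ± 0.739 RPKM (SD, n = 3) and the log2 fold change -5.84. In bulk RNA, fewer cells that express a gene and less of its RNA per cell cannot be told apart.

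CDH3 encodes P-cadherin, the cadherin of the basal layer of many epithelia and of placental trophoblast. It is the coding gene next to CDH1 in RefSeq annotation of the T2T-MFA8v1.1 assembly. Its level was 69.0, 103, 95.9 and 102 RPKM in primed replicates 1 to 4 and 6.38, 7.16, 7.68 and 25.2 RPKM in dome-shaped replicates 1 to 4. The groups did not overlap, and dome-shaped replicate 4 was again the highest of its group. CDH3 fell by 3.09 on the log2 scale (SE 0.37, 95% interval -3.92 to -2.27, limma adjusted p = 0.00213), from a mean of 92.5 ± 16 to 11.6 ± 9.10 RPKM (SD, n = 4 each). Without dome-shaped replicate 4 the log2 fold change was -3.52. CDH3 was at 6.38 RPKM or more in each dome-shaped library, while CDH1 was under 2 RPKM in 3 of them.

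Summed markers of trophoblast and endoderm, which hold epithelia, were also lower in the dome-shaped libraries. The summed level of 8 trophoblast markers was 31.8 to 65.7 RPKM in the primed group and 11.3 to 15.8 RPKM in the dome-shaped one. CGA and VGLL1 were under 1 RPKM in every library. Of the 5 tested trophoblast markers limma called 3 lower, KRT7, PGF and HAND1, against 7.96% of all genes tested. The summed level of 7 endoderm markers was 42.8 to 83.1 RPKM in the primed group and 4.58 to 38.4 RPKM in the dome-shaped one. Of these 7 limma called 2 lower, FOXA2 and AFP, against the same 7.96%. Neither set was at 0. Their part in the CDH1 and CDH3 results was not tested.

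CDH2 encodes N-cadherin, the cadherin of neural and mesenchymal cells. Its level was 57.5, 32.6, 48.0 and 30.3 RPKM in primed replicates 1 to 4 and 77.3, 109.8, 93 and 33.8 RPKM in dome-shaped replicates 1 to 4. Dome-shaped replicates 1 to 3 lay above all primed libraries, and dome-shaped replicate 4 lay inside the primed range. The mean was 42.1 ± 12.9 RPKM in the primed group and 78.5 ± 32.6 RPKM in the dome-shaped one (SD, n = 4 each). The log2 fold change was 0.81 (SE 0.35, 95% interval 0.024 to 1.6) and was not called (limma adjusted p = 0.148). Without dome-shaped replicate 4 CDH2 was called higher, with a log2 fold change of 1.17 (SE 0.23, limma adjusted p = 0.0116) and a dome-shaped mean of 93.4 ± 16.2 RPKM (SD, n = 3). That library was singled out in these same data and was the lowest dome-shaped one for CDH2. The larger fold change therefore follows from the choice. In that fit 1289 genes were called higher, against 995 with all libraries. CDH2 was expressed in every primed library as well, so both groups held N-cadherin transcript.

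CDH6 and CDH11 are type II classical cadherins, known in kidney and neural crest and in mesenchymal cells and bone, respectively. CDH6 was at 37.3, 35.8, 32.9 and 43.6 RPKM in primed replicates 1 to 4 and at 39.4, 91.4, 55.2 and 45.9 RPKM in dome-shaped replicates 1 to 4. Dome-shaped replicates 2, 3 and 4 lay above all primed libraries, replicate 4 by a small margin, and dome-shaped replicate 1 lay inside the primed range. The log2 fold change of CDH6 was 0.55 (SE 0.23, 95% interval 0.04 to 1.06, limma adjusted p = 0.132), not called. CDH11 was at 8.33, 5.55, 8.24 and 6.58 RPKM in primed replicates 1 to 4 and at 3.37, 16.1, 6.58 and 11.4 RPKM in dome-shaped replicates 1 to 4. The dome-shaped libraries of CDH11 spanned the whole primed range, from below it to above it. Its log2 fold change was 0.18 (95% interval -0.66 to 1.02, limma adjusted p = 0.777), and it was -0.12 without dome-shaped replicate 2.

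CDH4, the R-cadherin of retina and brain, was the lowest of the 6 cadherins in the mean of both groups. It ranged from 1.03 to 3.05 RPKM in the primed group and from 0.587 to 1.36 RPKM in the dome-shaped one, and 3 of 4 dome-shaped libraries lay below all primed ones. Its log2 fold change of -0.47 (95% interval -1.03 to 0.085, limma adjusted p = 0.225) was not called.

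Cells that carry CDH2, CDH6 or CDH11 in other tissues were looked for by their markers. Fibroblast markers summed to 156 to 318 RPKM in the primed group and 131 to 213 RPKM in the dome-shaped one, and DCN, POSTN and FAP were under 1 RPKM in every library. A large part of this sum was COL3A1, read from a row of only 94 bases. It was at 62.3 to 83.8 RPKM in primed and 60.5 to 150.7 RPKM in dome-shaped libraries, so the fibroblast sums say little of the other markers. Of 7 tested fibroblast markers limma called 0 higher and 1 lower, with 0 higher and 2 lower at an unadjusted p under 0.05. Over all genes tested 6.38% were called higher and 7.96% lower, and 16.2% and 15.4% at an unadjusted p under 0.05. Neural progenitor markers summed to 209 to 433 RPKM in the primed group and 243 to 339 RPKM in the dome-shaped one, with HES5 under 1 RPKM in every library and FABP7 the 1 of 3 tested that was higher. Neural crest markers summed to 18 to 79.8 RPKM in the primed group and 14.3 to 24.5 RPKM in the dome-shaped one, with SOX10 and TFAP2B under 1 RPKM in every library. Of 4 tested neural crest markers limma called 0 higher and 1 lower, ETS1, with 1 higher, SNAI2, and 1 lower at an unadjusted p under 0.05. Markers below the filter could still differ, and 2 are named after their values were seen. PAX3, of neural crest, was at 0.0763 to 0.618 RPKM in primed libraries and at 4.90, 11.1, 6.68 and 0.0479 RPKM in dome-shaped replicates 1 to 4. POU3F2, of neural progenitors, was at 0 to 0.282 RPKM in primed libraries and at 1.6, 2.75, 1.36 and 0.0539 RPKM in the same 4. Like CDH2, both were above all primed libraries in dome-shaped replicates 1 to 3 and not in replicate 4. For these 3 lists the summed levels of the groups overlapped. Most of the neural progenitor sum was NES, at 201 to 422 RPKM in primed and 220 to 324 RPKM in dome-shaped libraries. The overlap of that sum therefore says little of its other markers. Endothelial markers summed to 2.78 to 6.64 RPKM in the primed group and 17.7 to 26.2 RPKM in the dome-shaped one, with no overlap, TIE1 under 1 RPKM in every library and TEK the 1 of 2 tested that was higher. Without TEK the endothelial sums were 2.23 to 5.36 RPKM in primed and 0.885 to 2.76 RPKM in dome-shaped libraries, and overlapped. The endothelial cadherin CDH5, named after its values were seen, was at means of 2.83 and 3.25 RPKM and was not called (limma adjusted p = 0.899). Whether these markers had a part in the cadherin levels was not tested.

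The order of the cadherins differed between the groups. In primed cells the order by mean RPKM was CDH3, CDH1, CDH2, CDH6, CDH11 and CDH4, in which CDH3 and CDH1 overlapped, as did CDH2 and CDH6. The step from CDH1 to CDH2 and the steps below CDH6 showed no overlap between libraries. In dome-shaped cells the order was CDH2, CDH6, CDH3, CDH11, CDH1 and CDH4, and the 1 step without overlap between neighbours was that from CDH6 to CDH3. CDH2 was the most abundant of the 6 in dome-shaped replicates 1 to 3, and CDH6 in dome-shaped replicate 4, at 45.9 against 33.8 RPKM for CDH2. The rank of CDH1 among the 6 was 5, 6, 6 and 5 in dome-shaped replicates 1 to 4 and 1, 2, 2 and 2 in primed replicates 1 to 4.

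**Figure D2:**
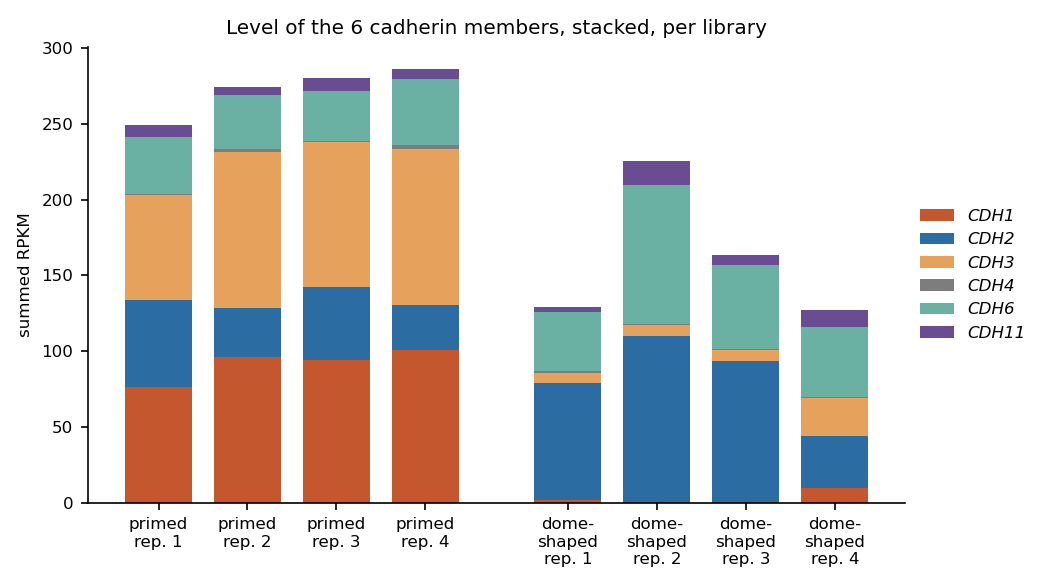
Summed level of the 6 cadherins in RPKM (vertical axis, linear, from 0) in each library, stacked by gene. The 4 primed libraries reach 249.7 to 286.5 RPKM and the 4 dome-shaped libraries 127.2 to 225.8 RPKM, in which the CDH1 and CDH3 segments are small.

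The summed level of the 6 cadherins was 249.7, 274.7, 280.1 and 286.5 RPKM in primed replicates 1 to 4 and 129.4, 225.8, 163.3 and 127.2 RPKM in dome-shaped replicates 1 to 4. All dome-shaped sums lay below all primed sums. The means were 272.7 ± 16.1 and 161.4 ± 46.0 RPKM (SD, n = 4 each), a difference of -111.3 RPKM, or -99.9 RPKM without dome-shaped replicate 4. Sums are given as a description, with no test.

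CDH1 and CDH3 together summed to a mean of 184.3 RPKM in the primed group and 14.6 RPKM in the dome-shaped one, a difference of -169.7 RPKM, larger than that of all 6. CDH2 and CDH6 together went the other way, from a mean of 79.5 to 136.5 RPKM, a difference of 57.0 RPKM. In dome-shaped replicate 4 their sum was 79.7 RPKM, within the primed range of 68.4 to 94.7 RPKM. Without that library the difference for CDH2 and CDH6 was 75.9 RPKM and that for CDH1 and CDH3 was -176.5 RPKM. The 5 cadherins other than CDH1 summed to 173.2 to 186.0 RPKM in the primed group and 117.2 to 225.4 RPKM in the dome-shaped one, with a difference of -22.5 RPKM between the means. These ranges overlapped: 3 dome-shaped sums were below all primed sums and 1, that of replicate 2, was above them. The difference was -8.80 RPKM without dome-shaped replicate 4. The mean level of CDH1 differed by -88.8 RPKM, and the sum of the other 5 was not higher in its mean. That sum holds CDH3, which differed by -80.9 RPKM, as well as CDH2 and CDH6, which together differed by 57.0 RPKM.

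As a share of the 6-gene sum, CDH1 made up 33.6 ± 2.08% in primed and 2.33 ± 3.70% in dome-shaped cells, and 0.497 ± 0.612% without dome-shaped replicate 4. The share of CDH2 was 10.6% to 23.0% in primed libraries, and 59.7%, 48.6%, 57.0% and 26.6% in dome-shaped replicates 1 to 4. The share of CDH6 was 11.7% to 15.2% in primed and 30.5% to 40.5% in dome-shaped libraries. For both, all 4 dome-shaped shares lay above all primed shares, including replicate 4, although neither gene was called in its own level. A share rises when the other terms of the sum fall, so these shares carry the loss of CDH1 and CDH3 as well. The ratio of CDH2 to CDH1 in RPKM was 0.302 to 0.751 in primed libraries and 49.7, 301.7, 453.2 and 3.4 in dome-shaped replicates 1 to 4. The 3 highest ratios divide by a CDH1 level of few reads and are imprecise.

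Summed by cadherin type, type I members, CDH1, CDH2, CDH3 and CDH4, summed to a mean of 228.2 ± 16.2 RPKM in the primed group and 94.1 ± 20.6 RPKM in the dome-shaped one, with no overlap. Type II members, CDH6 and CDH11, summed to 44.6 ± 4.27 RPKM in the primed group and 67.3 ± 28.0 RPKM in the dome-shaped one, and these libraries overlapped.

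Sample titles carry a number after CES, from 1 to 3, whose meaning the labels do not give. Number 1 is carried by primed replicate 1 and dome-shaped replicates 1 and 2, and number 2 by primed replicate 2 and dome-shaped replicate 3. Primed replicates 3 and 4 and dome-shaped replicate 4 carry number 3. The titles of primed replicate 4 and dome-shaped replicate 4 share a further tag, and those of dome-shaped replicates 1 and 2 carry tags of their own. These tags were not used here. Within the 3 numbers, the log2 difference of CDH1 was -5.38, -6.33 and -3.16 and that of CDH3 -3.17, -3.58 and -1.93. For CDH2 the differences were 0.67, 1.49 and -0.17, so number 3, which holds dome-shaped replicate 4, differed in sign from numbers 1 and 2. That sign comes from the average of primed replicates 3 and 4, at 48.0 and 30.3 RPKM. Dome-shaped replicate 4, at 33.8 RPKM, lay between them. CDH6 was higher within all 3 numbers, by 0.68, 0.61 and 0.27.

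The alpha-catenin CTNNA1, which joins the cadherin complex to actin, was the most abundant of the 3 catenins. Its level was 167, 170.2, 155.0 and 167 RPKM in primed replicates 1 to 4 and 159.8, 151, 147 and 138 RPKM in dome-shaped replicates 1 to 4. The groups overlapped, with 3 of 4 dome-shaped libraries below all primed ones. The log2 fold change was -0.15 (SE 0.067, 95% interval -0.30 to 0.0033, limma adjusted p = 0.167), not called.

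CTNND1, p120-catenin, was at 77.7, 81.6, 83.7 and 88.3 RPKM in primed replicates 1 to 4 and at 79.6, 69.3, 64.0 and 71.9 RPKM in dome-shaped replicates 1 to 4. Of the dome-shaped libraries, replicate 1 lay inside the primed range and the other three below it. The log2 fold change was -0.22 (SE 0.082, 95% interval -0.40 to -0.034, limma adjusted p = 0.105), not called. Without dome-shaped replicate 1 it was -0.27 and was called (limma adjusted p = 0.0450).

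CTNNA2, the alpha-catenin of the nervous system, was low, at 1.43 to 6.17 RPKM in the primed group and 0.882 to 4.48 RPKM in the dome-shaped one. Its log2 fold change of -0.72 (95% interval -1.65 to 0.20, limma adjusted p = 0.260) was not called. The order CTNNA1, CTNND1, CTNNA2 held in every library, with no overlap between neighbours in either group. None of the 3 catenins was called by limma, against 14.3% of all genes tested. At an unadjusted p under 0.05, 1 of them, CTNND1, was lower, against 15.4% of all genes tested.

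The summed level of the 3 catenins was 251.6 ± 8.35 RPKM in the primed group and 222.1 ± 15.2 RPKM in the dome-shaped one (SD, n = 4 each), a difference of -29.5 RPKM. The ratio of CTNNA1 to the summed cadherins was 0.606 ± 0.050 in primed and 0.972 ± 0.246 in dome-shaped cells, and dome-shaped replicate 2, at 0.667, fell within the primed range of 0.553 to 0.669. These are transcript levels, and protein was not measured.

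**Figure D3:**
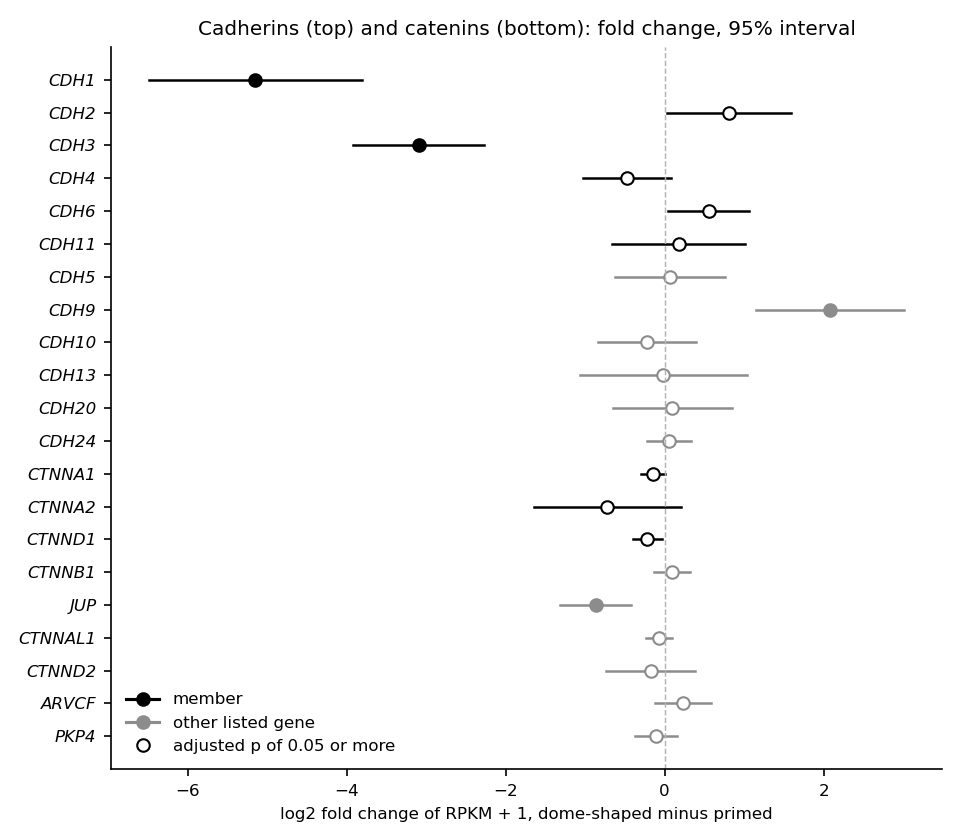
Log2 fold change of RPKM + 1, dome-shaped minus primed (horizontal axis), with 95% intervals from limma for the tested cadherins (top) and catenins (bottom). Filled points passed an adjusted p of 0.05: CDH1, CDH3 and JUP were lower and CDH9 was higher.

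Other cadherins were read from a list of 16, of which 15 had a row and 6 passed the filter. By limma 1 of the 6, CDH9, was higher and 0 were lower, against 6.38% and 7.96% of all genes tested. At an unadjusted p under 0.05 the counts were 1 and 0, against 16.2% and 15.4%. CDH9, a type II cadherin known in brain and kidney and next to CDH6 in the same annotation, was at 0.739, 2.42, 1.54 and 4.16 RPKM in primed replicates 1 to 4. In dome-shaped replicates 1 to 4 it was at 19.6, 11.9, 14.3 and 5.18 RPKM. The groups did not overlap, and dome-shaped replicate 4 was the lowest of its group, close to primed replicate 4. CDH9 rose by 2.08 on the log2 scale (SE 0.41, 95% interval 1.15 to 3.01, limma adjusted p = 0.0130), from 2.22 ± 1.47 to 12.8 ± 6.0 RPKM (SD, n = 4 each). Its mean in dome-shaped cells was near those of CDH3 and CDH11 and below those of CDH2 and CDH6.

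The remaining tested cadherins were not called. CDH24 was at a mean of 16.7 RPKM in the primed group and 17.5 RPKM in the dome-shaped one, with a log2 fold change of 0.055 (95% interval -0.22 to 0.33, limma adjusted p = 0.786). CDH10, a type II cadherin of brain, was at 12.2 and 11 RPKM, with a log2 fold change of -0.22 (95% interval -0.83 to 0.40, limma adjusted p = 0.621). CDH20 was near 1 RPKM in both groups, with a log2 fold change of 0.098 (limma adjusted p = 0.868) that turned to -0.0086 when primed replicate 4 was left out, to -0.21 without dome-shaped replicate 2 and to -0.027 with a pseudocount of 0.1. The 9 cadherins below the filter have no test, and 2 are given here, chosen after their values were seen. CDH7 was at 0.384 to 0.660 RPKM in primed libraries and at 1.56, 2.54, 3.18 and 0.424 RPKM in dome-shaped replicates 1 to 4. CDH18 went the other way, at 0.688 to 1.42 RPKM in primed and 0 to 0.200 RPKM in dome-shaped libraries. In their means CDH8, CDH16, CDH17 and CDH26 were also higher in the dome-shaped group, and CDH12, CDH15 and CDH19 were lower. With all 21 cadherins that had a row, the summed level was 313.0 ± 13.1 RPKM in the primed group and 212.7 ± 48.7 RPKM in the dome-shaped one. The 15 other cadherins summed to 40.2 ± 4.45 and 51.3 ± 11.1 RPKM.

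Other catenins were read from a list of 7, all with a row, of which 6 were tested. By limma 1 was lower and 0 were higher, against 7.96% and 6.38% of all genes tested. At an unadjusted p under 0.05 the counts were the same, against 15.4% and 16.2%. The catenin called was JUP, plakoglobin, which can take the place of beta-catenin on the cadherin tail and is also part of desmosomes. JUP was at 37.5, 56.1, 54.8 and 58.5 RPKM in primed replicates 1 to 4 and at 26.1, 28.3, 38.3 and 20.2 RPKM in dome-shaped replicates 1 to 4. The groups overlapped by 1 library, dome-shaped replicate 3, which lay just above primed replicate 1. JUP fell by 0.87 on the log2 scale (SE 0.20, limma adjusted p = 0.0216). The call was lost without primed replicate 2, 3 or 4 or dome-shaped replicate 2, at limma adjusted p of 0.0632, 0.0571, 0.0595 and 0.0558.

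CTNNB1, beta-catenin, which is both the link from cadherin to alpha-catenin and the effector of Wnt signalling, was not called. Its level was 322.8 to 384.6 RPKM in the primed group and 307.1 to 406.5 RPKM in the dome-shaped one, with a log2 fold change of 0.091 (95% interval -0.14 to 0.32, limma adjusted p = 0.578). ARVCF, a relative of p120-catenin, had a log2 fold change of 0.23 (95% interval -0.12 to 0.59, limma adjusted p = 0.346). CTNNAL1, a relative of alpha-catenin, had one of -0.071 (95% interval -0.24 to 0.095, limma adjusted p = 0.546).

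Nectins, their adaptor afadin and proteins that tie the junction to actin or microtubules were read from a list of 15, of which 14 had a row and 13 were tested. By limma 6 were lower and 0 higher, against 7.96% lower and 6.38% higher of all genes tested. At an unadjusted p under 0.05 the counts were the same, against 15.4% lower and 16.2% higher of all genes tested. The median log2 fold change of this list was -0.30, against 0.026 for all genes tested. NECTIN2, an immunoglobulin-type adhesion receptor, was at 157.2 ± 14.9 RPKM in the primed group and 106.6 ± 13.5 RPKM in the dome-shaped one (SD, n = 4 each) and fell by 0.56 on the log2 scale (SE 0.10, limma adjusted p = 0.0107). CAMSAP3, which binds microtubule minus ends and is found at junctions through PLEKHA7, fell by 1.15 (SE 0.18, limma adjusted p = 0.00516), from 22.6 ± 1.90 to 9.86 ± 3.09 RPKM. PTPRF, a receptor tyrosine phosphatase at cell contacts, fell by 1.16 (SE 0.19, limma adjusted p = 0.00677), from 282.7 ± 71.9 to 124.3 ± 20.6 RPKM. TJP1, the scaffold ZO-1 that binds alpha-catenin and actin, fell by 0.30 (SE 0.059, limma adjusted p = 0.0133), and the call was lost without primed replicate 2 (limma adjusted p = 0.0530). The groups did not overlap for any of these 4 genes, as they did not for 22.2% of all genes tested. These 4 were picked for the smallest adjusted p of the list in the same libraries, so this follows largely from the choice.

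Genes that mature, cleave or turn over cadherins were read from a list of 8, of which 6 had a row and were tested. By limma 0 were higher and 1 was lower, against 6.38% and 7.96% of all genes tested. At an unadjusted p under 0.05 the counts were 0 and 3, against 16.2% and 15.4%. FURIN, a proprotein convertase that can remove the prodomain of E-cadherin, fell by 0.98 on the log2 scale (SE 0.17, limma adjusted p = 0.00785), from 27.3 ± 5.49 to 13.3 ± 2.15 RPKM. The endocytic adaptor NUMB was at 24.2 ± 1.14 RPKM in the primed group and 19.5 ± 2.33 RPKM in the dome-shaped one and was not called (limma adjusted p = 0.0737), but was called lower without dome-shaped replicate 1 (limma adjusted p = 0.0481). The membrane protease MMP14 was at 64.7 ± 4.75 and 54.0 ± 7.83 RPKM and was not called (limma adjusted p = 0.131), but was called lower without dome-shaped replicate 4 (limma adjusted p = 0.0403). CBLL1, the ubiquitin ligase Hakai that acts on E-cadherin, had a log2 fold change of 0.15 (95% interval -0.053 to 0.36, limma adjusted p = 0.285), not called. Over the 4 lists together 31 genes were tested, 1 of them higher and 8 lower (6.38% and 7.96% of all genes tested were), and the lower count became 5 without primed replicate 2.

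The genes whose pattern over the 8 libraries was nearest to CDH1 were sought among 2341 genes with a symbol in the table and a mean of at least 5 RPKM, by the root mean square difference of log2(RPKM + 1) after each gene was centred. They were AP1M2 at 0.73, RAB25 at 0.95, SERPINB6 at 1.01, HESX1 at 1.04 and GALR1 at 1.11. AP1M2, a clathrin adaptor subunit of epithelial cells, was at 29.7 to 75.0 RPKM in the primed group and 0.319 to 2.07 RPKM in the dome-shaped one. RAB25, a small GTPase of epithelial membrane recycling, was at 12.2 to 23.1 RPKM in primed libraries, was listed at 0 in 1 dome-shaped library and reached 2.12 RPKM in another. HESX1, a homeobox repressor, was at 24.8 to 33.6 RPKM in the primed group and 0.909 to 1.82 RPKM in the dome-shaped one. These 5 genes were picked on the same libraries, so what their patterns share with CDH1 follows from the choice.

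The genes nearest to CDH2, the cadherin other than CDH1 with the highest dome-shaped mean, were PHC2 at 0.15, EFNB1 at 0.30, LRIG3 at 0.30, HEG1 at 0.31 and COL5A1 at 0.31. PHC2, a Polycomb protein, was at 15.8 to 28.7 RPKM in primed libraries and at 37.7, 48.2, 47.9 and 15.6 RPKM in dome-shaped replicates 1 to 4. EFNB1, a ligand of Eph receptors, was at 10.3 to 16.5 RPKM in primed libraries and at 35.1, 27.4, 36.5 and 8.70 RPKM in dome-shaped replicates 1 to 4. Here too the shared pattern, low dome-shaped replicate 4 included, follows from the choice. These distances describe likeness in 8 libraries that share their groups and have no test.

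**Figure D4:**
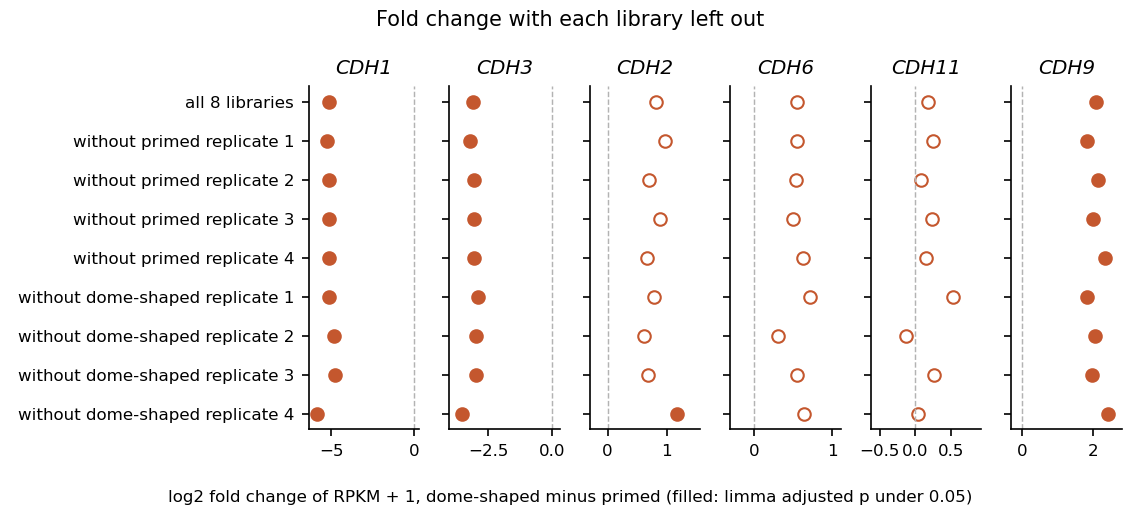
Log2 fold change of RPKM + 1, dome-shaped minus primed (horizontal axes, a scale for each gene), with all 8 libraries and with each library left out in turn (rows), filled where the limma adjusted p was under 0.05. CDH1, CDH3 and CDH9 are filled in every row, CDH2 in the row without dome-shaped replicate 4, CDH6 and CDH11 in none, and CDH11 crosses 0 in the row without dome-shaped replicate 2.

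With each library left out in turn, CDH1 stayed between -5.84 and -4.78 and CDH3 between -3.52 and -2.91 on the log2 scale, both called lower each time by limma, at adjusted p of at most 0.00908 and 0.00980. CDH9 stayed between 1.83 and 2.43 and was called higher each time, at limma adjusted p of at most 0.0428. CDH2 ranged from 0.61 to 1.17 and was called in 1 of these 8 fits, the one without dome-shaped replicate 4. CDH6 ranged from 0.31 to 0.71 and was called in 0 of 8, with limma adjusted p of 0.0691 to 0.248.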

How the data were processed

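The authors deposited 1 table of RPKM values for 8 libraries, with query lengths and, for most genes, protein matches with a percent identity. Per the submitters' processing notes the tools were HTSeq 0.6.1, TopHat2 2.0.9 and Bowtie2 2.0.6. The aligned genome is not given in the sources used, and the labels' protocols record no strand-specific step. Of 33138 rows, 17 were blank and left out. Columns of other samples numbered 0. The columns of dome-shaped replicates 1 to 3 carry cut titles and were assigned by the start of the title; that of replicate 3 also begins a primed title, which has a column of its own. Genes without a table symbol were named by the best protein match, at 85% identity or more, so close copies may share reads.

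Genes that reached 1 RPKM in 4 or more of the 8 libraries were tested with limma 3.58.1 in R 4.3.3 (log2(RPKM + 1), two-sided, without covariates, eBayes with trend after lmFit, Benjamini-Hochberg over all genes tested); this understates changes of low genes. The fit was tested on simulated data. RPKM times length gave whole reads (within 0.01) for 71.9% to 73.8% of values under 50 reads, so no count test was run. Replicate numbers follow accession order and pair no samples. The genes named were all 9 members, up to 4 genes of smallest adjusted p in each of 4 lists, and the 5 genes nearest to CDH1 and to CDH2. Members, lists and tests were chosen with earlier results of these data known, and some genes of the lists are not reported here. Alternatives were pseudocounts of 0.1 and 0.5, testing every gene or those with a mean of 5 RPKM or more, scaling by quantiles, by median of ratios or to a common sum, a block or averages by the number after CES, and leaving out each library.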

Additional observations from a re-analysis of the deposited data

Results flagged for a closer look

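In groups of 4 libraries, a library whose gap to the nearest other exceeded Dixon's 95% critical value was singled out. This was found for 3 of 58 groups, and chance gives about 1 in 20. Dome-shaped replicate 4 was high for CDH1, at 9.96 RPKM against 0.205 to 1.56 RPKM in the other dome-shaped libraries. It was high for CDH3, at 25.2 RPKM against 6.38 to 7.68 RPKM. It was high for the share of CDH1 in the summed cadherins, at 7.83% against 0.126% to 1.2%, a value that rests on the CDH1 level.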

How the results depend on the processing

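CDH1 and CDH3 kept their direction and their limma call under every alternative run, at log2 fold changes of -6.21 to -4.78 for CDH1 and -3.52 to -2.83 for CDH3. With a replicate block by the number after CES, 303 genes were higher and 593 lower, and 0 and 5 genes of the 4 lists; CDH9 (2.04) and TJP1 (-0.29) lost their calls there (limma adjusted p of 0.0528 and 0.0611). The 5 pairs of libraries with the same number in different groups had correlations of deviations of -0.10 to 0.12, 1 of them over 0.1, which does not show a pairing; what the number marks is not known. With libraries averaged by group and number, 463 genes were higher and 758 lower, CDH6 was the 1 member called higher (0.55, limma adjusted p = 0.0453) and JUP lost its call (limma adjusted p = 0.0897).

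With 1 library left out, 381 to 1289 genes were higher and 655 to 1441 lower; 0 to 1 members were higher and 2 to 3 lower; and 1 and 5 to 9 genes of the 4 lists were higher and lower. The log2 fold change of CDH2 ranged from 0.61 to 1.17, of CDH11 from -0.12 to 0.53 and of CTNND1 from -0.27 to -0.17. CDH20 turned to -0.027 with a pseudocount of 0.1 and ranged from -0.21 to 0.38 with 1 library left out, below 0 without primed replicate 4 (-0.0086) or dome-shaped replicate 2. Rescaling each library to a common sum of RPKM, which changes the unit, gave -169.8 for the summed cadherins and -48.9 for the summed catenins. The cause of the changed calls was not tested. Taking the next highest row of a member could not be run, since each had 1 row. Dome-shaped CDH1 levels are limited by their low reads.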
